A study of Mus musculus with 6 samples.

Results

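Integrins are cell surface receptors made of an alpha and a beta chain, and they hold a cell to the matrix around it. In cardiomyocytes (CMs) their main partner is the basement membrane, a thin sheet that wraps each muscle cell and each capillary. Laminins, trimers of an alpha, a beta and a gamma chain, form its first network, nidogens tie that network to collagen IV, and the large proteoglycans perlecan (*Hspg2*) and agrin (*Agrn*) are anchored in it. Dystroglycan is the other main laminin receptor of muscle and links the sheet to dystrophin inside the cell.

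The genes described here are the 36 protein-coding genes, of 16448 genes listed, whose symbols name an integrin alpha chain (16 genes), an integrin beta chain (7), a laminin chain (9), or a nidogen, perlecan or agrin (4). They were chosen by symbol. RNA-seq compared CMs of 3 CtrlCre and 3 Cpt1bcKO samples to ask what loss of *Cpt1b*, which encodes the muscle carnitine palmitoyltransferase that lets long-chain fatty acids enter mitochondria, does to CM gene expression. Cpt1bcKO mice were αMHC-Cre pos/+; *Cpt1b* fl/fl, and CtrlCre mice were αMHC-Cre pos/+; *Cpt1b* +/+, so both groups carried the Cre transgene and only the first carried the floxed gene. The αMHC (*Myh6*) promoter drives Cre in CMs and not in the other cell types of the heart. The mice were C57BL/6 and 8 to 12 weeks old, and CMs were freed by enzymatic digestion of perfused hearts and collected from the ventricles. The deposited values are normalised counts: read counts on a gene divided by 1 factor per sample and rounded to whole numbers by the authors.

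*Cpt1b* had 1861, 893 and 1443 normalised counts in CtrlCre and 211, 353 and 285 in Cpt1bcKO, a log2 fold change of −2.27 (SE 0.267, adjusted P = 0.00338 from limma). Sample totals ran from 13393411 to 31722217, of which the mitochondrial rRNA *mt-Rnr2* took 61.8% to 80.8%, and from 3146414 to 3551692 without mitochondrial-encoded and rRNA genes. CM markers such as *Myh6*, *Tnnt2* and *Actn2* were high in every sample, with sums over the 8 listed of 239443 to 307393 in CtrlCre and 178370 to 210238 in Cpt1bcKO. CtrlCre 1 stood apart from the other controls, with summed endothelial markers of 1517 against 2932 and 3195 and summed mural cell markers of 619 against 1628 and 2030. Replicate 1 of each group was also the only one with high *Xist* (957 and 1080) and no *Ddx3y*, so the numbering runs with sex. The members' results are given without CtrlCre 1 and without replicate 1 of both groups where these move a call. Leaving out CtrlCre 1 or Cpt1bcKO 1 alone keeps a high-*Xist* sample in only the other group. Sex is then unequal between the groups, while leaving out replicate 1 of both keeps only samples with *Ddx3y*. The study describes these expression data as coming from separate mice of each genotype, while the labels do not tie a sample to a mouse.

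The upstream sequences are shown for the members whose difference had an unadjusted P below 0.05 and whose start in the deposited table lay within 100 bases of a RefSeq transcript start, so that the base composition next to these genes can be read beside their values. These were 3 of the 7 such members, *Itga1* and *Agrn*, which were higher in Cpt1bcKO, and *Lama2*, which was lower. Each window holds the 250 bases before the start, on the minus strand of GRCm38.p6 as given by RefSeq, at chr13:115101965-115102214 for *Itga1*, chr10:27616943-27617192 for *Lama2* and chr4:156197489-156197738 for *Agrn*. Capitals mark matches to the motifs searched on both strands, which were the GC box (GGGCGG), the CCAAT box (those 5 letters), the TATA element (TATAA) and the MCAT element of muscle genes (CATTCC).
*Itga1*: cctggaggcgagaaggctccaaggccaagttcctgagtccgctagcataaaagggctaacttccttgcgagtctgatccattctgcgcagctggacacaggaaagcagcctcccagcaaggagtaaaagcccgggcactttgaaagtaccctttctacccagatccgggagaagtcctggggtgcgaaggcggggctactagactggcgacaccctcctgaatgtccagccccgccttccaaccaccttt
*Lama2*: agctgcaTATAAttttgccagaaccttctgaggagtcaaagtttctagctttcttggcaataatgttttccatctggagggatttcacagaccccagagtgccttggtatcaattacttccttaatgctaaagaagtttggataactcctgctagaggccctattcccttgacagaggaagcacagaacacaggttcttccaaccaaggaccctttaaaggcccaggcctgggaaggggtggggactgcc
*Agrn*: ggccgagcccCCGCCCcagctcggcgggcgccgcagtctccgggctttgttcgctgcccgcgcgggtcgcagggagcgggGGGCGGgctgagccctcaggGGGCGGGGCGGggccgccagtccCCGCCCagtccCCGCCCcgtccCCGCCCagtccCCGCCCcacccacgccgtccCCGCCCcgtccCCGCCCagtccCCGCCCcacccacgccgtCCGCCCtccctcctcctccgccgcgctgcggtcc
The *Agrn* window was 83.6% G or C and held 12 GGGCGG matches, 3 forward and 9 on the other strand, including 2 that overlap by a base at positions −150 and −145 from the start. The *Itga1* window was 57.6% G or C and held no match. The *Lama2* window was 47.2% G or C and held 1 TATAA match at −243, and its start lay 99 bases from the deposited start. In the GENCODE vM21 annotation *Lama2* begins further upstream, at 27619758, so there this window lies inside the gene. Over 32851 RefSeq windows of this length the median was 52.4% G or C (quartiles 45.2% and 61.2%), and 32.7% held GGGCGG, 33.8% CCAAT, 22.8% TATAA and 12.6% CATTCC. A match describes letters in a window and is not a binding site.

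Of the 36 genes, 26 reached 10 normalised counts in 3 or more samples and were tested, as part of 11364 genes, and 23 of these reached 10 in every sample. The exceptions were *Itga4*, *Itga8* and *Lama3*, whose low values make their fold changes imprecise. The 10 genes not tested had values of 0 to 11. They were the collagen receptor chains *Itga2* and *Itga11*, the leukocyte chains *Itgae*, *Itgal*, *Itgam*, *Itgax* and *Itgb2*, the alpha v partners *Itgb3* and *Itgb8*, and *Itgb4*, the partner of *Itga6* in the hemidesmosomes of epithelia.

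Per kilobase of exon, *Itgb1*, the common beta chain, had by far the highest level, at 590.5 ± 7.96 normalised counts per kilobase in CtrlCre and 501.2 ± 96.7 in Cpt1bcKO (SD, n = 3). *Lamb2*, the laminin beta chain of adult muscle, followed with 192 ± 25.8 and 169 ± 19.0, and *Hspg2* with 73.6 ± 19.4 and 96.3 ± 19.0. In CtrlCre the next places went to *Lamc1* (52.1), *Lama2* (47.4), *Itgb5* (47.1), *Itga9* (46.6) and *Itga7* (42.8), each overlapping its neighbour in this order over the samples. *Itga9* moved from rank 7 in CtrlCre to rank 4 in Cpt1bcKO, at 74.9 ± 9.30, and *Lama2* from rank 5 to rank 12, at 27.9 ± 5.09.

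**Figure D1:**
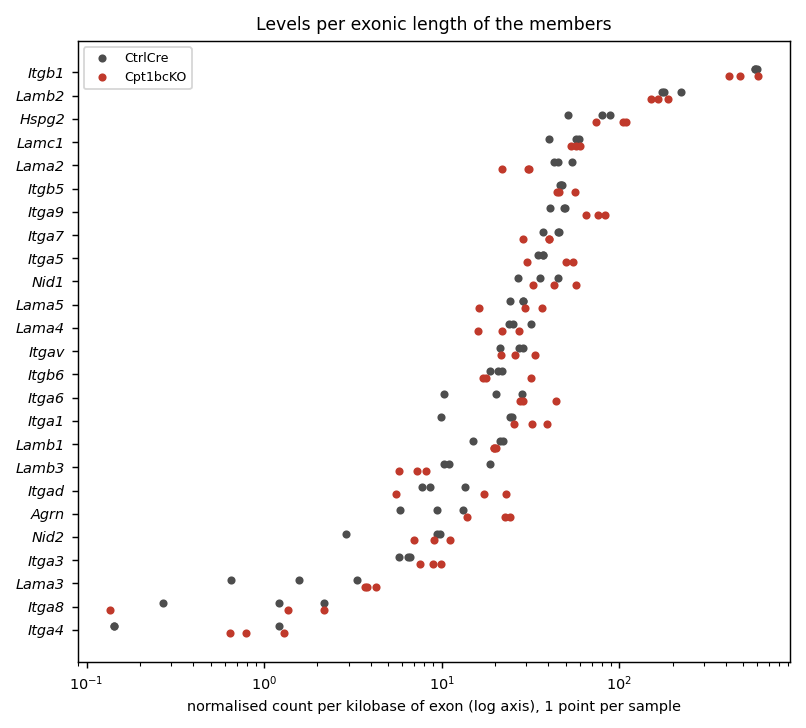
Normalised counts per kilobase of exon (log axis) of 25 of the 26 members tested, 1 point per sample, CtrlCre in grey and Cpt1bcKO in red, ordered by the CtrlCre mean. *Itgb1* lies alone at the top, at 416 to 606 normalised counts per kilobase, and *Lama2* and *Itga9* move in opposite directions between the groups.

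At an adjusted P below 0.05 by limma, 1.57% of the 11364 genes were called (178) and none of the 26 members was, with a smallest adjusted P of 0.0612 for *Lama2*. At an unadjusted P below 0.05, the threshold the study used, 5 members were higher in Cpt1bcKO, against a background of 6.66% of genes, and 2 were lower, against 7.22%. The samples of the groups did not overlap in 5 members that were higher, against 9.13% of all genes, and in 2 that were lower, against 9.6%. The median log2 fold change was 0.44 over 10 integrin alpha genes (8 above 0), 0.05 over 3 integrin beta genes (2 above 0), −0.06 over 9 laminin genes (4 above 0) and 0.42 over the other 4 genes (4 above 0). It was −0.001 over all genes tested. Without CtrlCre 1 these medians were 0.41, 0.05, −0.08 and 0.14, and 2 members were higher (*Itga9* and *Agrn*) and 2 lower (*Lama2* and *Lamb3*) at the unadjusted threshold, beside 631 genes higher and 588 lower in all. *Itga1*, *Itga6* and *Lama3* then missed it. Without replicate 1 of both groups 6 members were higher (*Itga1*, *Itga5*, *Itga9*, *Itgad*, *Agrn* and *Hspg2*) and 3 lower (*Itgb1*, *Lama2* and *Lamb3*), beside 947 genes higher and 1062 lower in all, while *Itga6* and *Lama3* missed the threshold. Scaling the samples to equal totals without mitochondrial and rRNA genes brought the median of all genes to 0.11 and the calls at adjusted P to 103 higher and 74 lower, against 75 and 103 as deposited. Under that scaling 7 members were higher and 2 lower at the unadjusted threshold, beside 1221 genes higher and 505 lower in all, and *Itga9* passed the adjusted one.

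**Figure D2:**
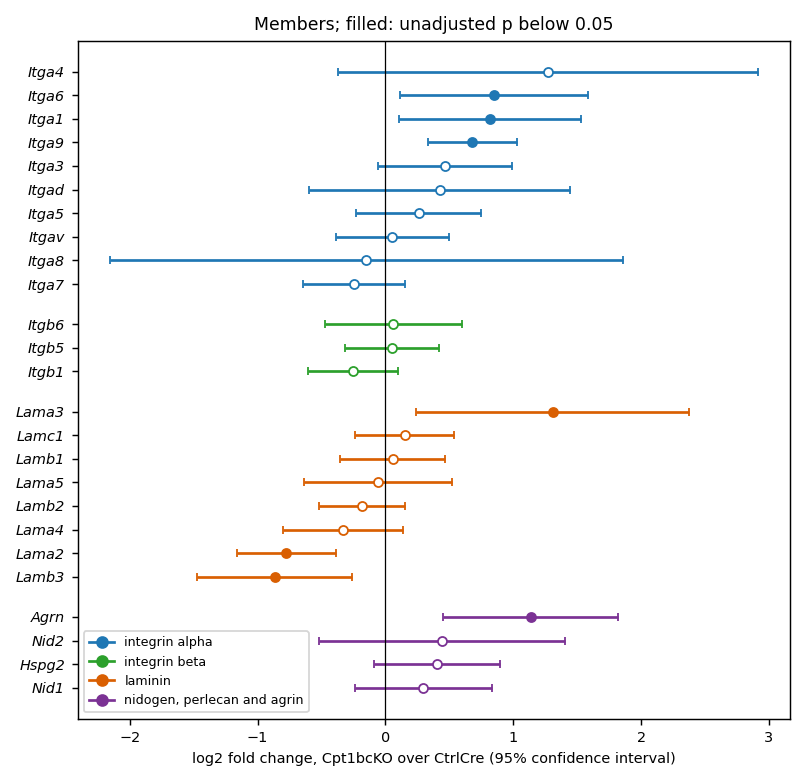
Log2 fold change of Cpt1bcKO over CtrlCre with its 95% confidence interval from limma for 25 of the 26 members tested, by class, with filled points for an unadjusted P below 0.05. Integrin alpha genes lie mostly above 0, laminin genes on both sides, and the 3 integrin beta genes between −0.25 and 0.06.

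Among integrin alpha genes, *Itga9*, *Itga1* and *Itga6* were higher in Cpt1bcKO at the unadjusted threshold. *Itga9* (ENSMUSG00000039115, chromosome 9, 118606690 to 118901003, plus strand, GRCm38), a receptor chain for tenascin-C and VCAM1, had 316, 377 and 383 normalised counts in CtrlCre and 500, 586 and 642 in Cpt1bcKO. Every Cpt1bcKO sample lay above every CtrlCre sample, with the lowest 117 above the highest control. This gave a log2 fold change of 0.68 (SE 0.157, 95% confidence interval 0.33 to 1.03, adjusted P = 0.0665 by limma). Without CtrlCre 1 it was 0.59 (adjusted P = 0.194), and without replicate 1 of both groups 0.69 (adjusted P = 0.0411).

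*Itga1* (ENSMUSG00000042284, chromosome 13, 114953096 to 115101964, minus strand), a collagen receptor chain of which *Itga2* is the neighbouring gene 20995 bases away, had 184, 464 and 450 normalised counts in CtrlCre and 476, 602 and 734 in Cpt1bcKO. The groups did not overlap, but the lowest Cpt1bcKO sample was within 12 of CtrlCre 2, and CtrlCre 1 lay far below the rest. The log2 fold change was 0.82 (SE 0.322, adjusted P = 0.286 by limma). It was 0.38 without CtrlCre 1 (adjusted P = 0.548), and 0.54 without replicate 1 of both groups, where it passed the unadjusted threshold (adjusted P = 0.110). Of its 18599 exonic bases, 685 are shared with the same-strand gene model *Gm49395*. The study left out reads that overlapped several genes, so reads there were not counted if its annotation held that model.

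The laminin receptor chains differed in the sign of their fold changes. *Itga6* (ENSMUSG00000027111, chromosome 2, 71786940 to 71856771, plus strand), found on endothelium and epithelium, had 93, 183 and 257 normalised counts in CtrlCre and 259, 400 and 250 in Cpt1bcKO. Cpt1bcKO 3 lay below CtrlCre 3, so the groups overlapped. The log2 fold change of *Itga6* was 0.85 (SE 0.332, adjusted P = 0.279 by limma) and 0.45 without CtrlCre 1 (adjusted P = 0.580), or 0.54 without replicate 1 of both groups (adjusted P = 0.295). *Itga7* (ENSMUSG00000025348, chromosome 10, 128933818 to 128958282, plus strand), the main laminin-binding alpha chain of striated muscle, had 303, 368 and 369 normalised counts in CtrlCre and 233, 327 and 324 in Cpt1bcKO. The ranges overlapped, as Cpt1bcKO 2 and 3 lay above CtrlCre 1, and the log2 fold change was −0.24 (95% confidence interval −0.64 to 0.15, adjusted P = 0.588 by limma). Leaving out Cpt1bcKO 1 brought that of *Itga7* to −0.085. *Itga3*, the third laminin-binding chain, had 38, 33 and 37 normalised counts in CtrlCre and 43, 51 and 57 in Cpt1bcKO. Here the groups did not overlap, with a log2 fold change of 0.47 (SE 0.238, adjusted P = 0.419 by limma).

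The 3 laminin-binding chains all pair with *Itgb1*, and their mix was also expressed as a share within each sample, which no scaling between samples can alter. Per exonic length, *Itga7* made up 68.8%, 63.6% and 56.6% of *Itga3*, *Itga6* and *Itga7* together in CtrlCre and 44.3%, 43.1% and 51.5% in Cpt1bcKO. The groups did not overlap, and the means were 63.0% ± 6.13 and 46.3% ± 4.54 (SD, n = 3), a difference of −16.7 percentage points. The exact two-sided permutation P was 0.1, the smallest that 3 against 3 samples can give, and 0.15 after adjustment over the 3 shares computed. Leaving out 1 sample at a time kept the difference between −19.9 and −13.8 points. Within each group the samples ranked by this share in the reverse order of their summed endothelial markers, which were 1517, 2932 and 3195 normalised counts in CtrlCre and 3358, 3510 and 2978 in Cpt1bcKO, and summed CM markers were lower in every Cpt1bcKO sample than in every control. The part of endothelial and CM RNA in this share was not tested.

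The remaining integrin alpha genes overlapped between the groups. *Itga5*, the fibronectin receptor chain, had 172, 184 and 184 normalised counts in CtrlCre and 150, 270 and 247 in Cpt1bcKO, so that Cpt1bcKO 1 was the lowest sample and the other two Cpt1bcKO samples were the highest (log2 fold change 0.26, adjusted P = 0.653 by limma). Without replicate 1 of both groups it was 0.49, which passed the unadjusted threshold (adjusted P = 0.171). *Itgav*, which pairs with several beta chains to bind vitronectin and other ligands, had 228, 292 and 310 normalised counts in CtrlCre and 231, 361 and 277 in Cpt1bcKO, a log2 fold change of 0.05. Its sign turned to −0.08 without CtrlCre 1. *Itgad*, a partner of *Itgb2* in leukocytes, had 61, 35 and 39 normalised counts in CtrlCre and 25, 78 and 104 in Cpt1bcKO. Cpt1bcKO 1 was again the lowest, and without replicate 1 of both groups the log2 fold change of 0.42 became 1.26 (adjusted P = 0.0465 by limma), while without Cpt1bcKO 2 it was 0.23 and without Cpt1bcKO 3 it was 0.020. Its exons overlap 70 bases of *Cox6a2* on the other strand and gene models such as *4931431B13Rik* and *Gm17831*, and its partner *Itgb2* had values of 0 to 9. The study left out reads that overlapped several genes, and the origin of the reads counted for *Itgad* was not tested. *Itga4* had 2, 2 and 17 normalised counts in CtrlCre and 11, 18 and 9 in Cpt1bcKO, and *Itga8* had 2, 9 and 16 and 16, 10 and 1. Neither passed a threshold, and at these low values samples of the same group spread from 2 to 17 and from 1 to 16.

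With all samples, none of the 3 integrin beta genes tested passed either threshold. *Itgb1* (ENSMUSG00000025809, chromosome 8, 128685654 to 128733200, plus strand) had 2447, 2388 and 2394 normalised counts in CtrlCre and 2474, 1965 and 1697 in Cpt1bcKO. The controls lay within 59 of each other, Cpt1bcKO 1 was the highest of all 6 samples and Cpt1bcKO 2 and 3 were the lowest. The log2 fold change of *Itgb1* was −0.25 (SE 0.157, 95% confidence interval −0.60 to 0.10, adjusted P = 0.516 by limma), and without replicate 1 of both groups it was −0.39, which passed the unadjusted threshold (adjusted P = 0.161), while without Cpt1bcKO 3 it was −0.13 (adjusted P = 0.821). *Itgb5*, a partner of *Itgav*, had 167, 170 and 165 normalised counts in CtrlCre and 200, 159 and 164 in Cpt1bcKO, a log2 fold change of 0.05 with a 95% confidence interval of −0.32 to 0.42. *Itgb6*, another partner of *Itgav* that is best known from epithelia, had 147, 134 and 155 in CtrlCre and 122, 226 and 126 in Cpt1bcKO, a log2 fold change of 0.06 (95% confidence interval −0.47 to 0.60). Both ranges overlapped and both signs turned when 1 Cpt1bcKO sample was left out.

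**Figure D3:**
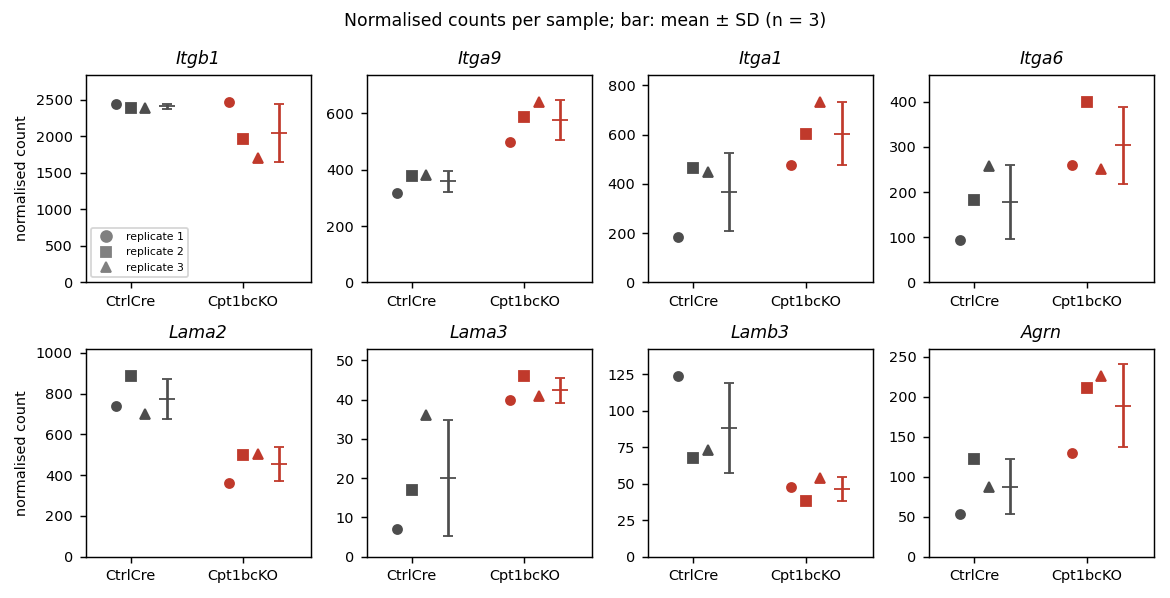
Normalised counts per sample of *Itgb1* and of the 7 members with an unadjusted P below 0.05, with the mean and SD of each group (n = 3) beside the points. CtrlCre 1 is the lowest sample for *Itga9*, *Itga1*, *Itga6*, *Lama3* and *Agrn*, while the *Lama2* samples of the groups are separate by 195 normalised counts.

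Among laminin genes, the alpha chain *Lama2* was lower, as was *Lamb3*, and *Lama3* was higher in Cpt1bcKO at the unadjusted threshold. *Lama2* (ENSMUSG00000019899, chromosome 10, 26981285 to 27616843, minus strand) encodes the laminin alpha chain of the muscle basement membrane, whose loss causes a congenital muscular dystrophy. It had 737, 886 and 701 normalised counts in CtrlCre and 359, 500 and 506 in Cpt1bcKO. All 3 Cpt1bcKO samples lay below all controls, at a log2 fold change of −0.78 (SE 0.175, 95% confidence interval −1.16 to −0.39, adjusted P = 0.0612 by limma). It was −0.81 without CtrlCre 1 (adjusted P = 0.133) and −0.65 without replicate 1 of both groups (adjusted P = 0.0670). Antisense gene model *Gm48084* covers 631 of its 16338 exonic bases.

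*Lama4* and *Lama5* encode alpha chains that endothelium makes. *Lama4* had 288, 304 and 384 normalised counts in CtrlCre and 194, 329 and 263 in Cpt1bcKO (log2 fold change −0.33, 95% confidence interval −0.80 to 0.13). Leaving out Cpt1bcKO 1 brought that of *Lama4* to −0.13, and leaving out Cpt1bcKO 2 to −0.51. *Lama5* had 275, 328 and 326 in CtrlCre and 186, 335 and 417 in Cpt1bcKO, a log2 fold change of −0.06 that became 0.05 when samples were scaled to equal totals. Both overlapped, with Cpt1bcKO 1 the lowest sample. As a share per exonic length of *Lama2*, *Lama4* and *Lama5*, *Lama2* made up 48.4%, 50.1% and 41.5% in CtrlCre and 40.4%, 35.1% and 34.7% in Cpt1bcKO. Cpt1bcKO 1 lay 1.1 points below CtrlCre 3, the closest approach of the groups, and the difference of the means was −9.98 points (46.7% ± 4.56 against 36.7% ± 3.21, SD, n = 3, exact two-sided permutation P = 0.1, adjusted 0.15).

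**Figure D4:**
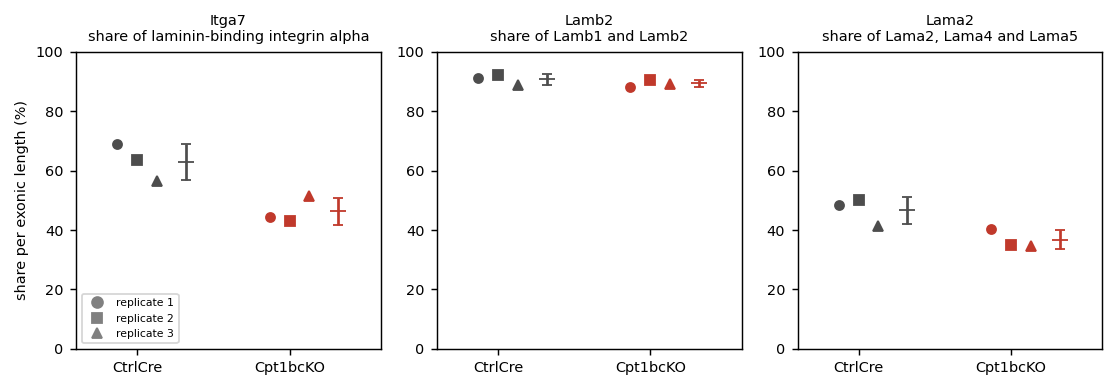
Shares per exonic length in each sample (percent), with the mean and SD of each group (n = 3): *Itga7* among the laminin-binding alpha chains *Itga3*, *Itga6* and *Itga7*, *Lamb2* among *Lamb1* and *Lamb2*, and *Lama2* among *Lama2*, *Lama4* and *Lama5*. The first and the last share do not overlap between the groups, with means of 63.0% against 46.3% and of 46.7% against 36.7%, while the mean *Lamb2* share is 90.8% and 89.4%.

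*Lama3* and *Lamb3* encode chains of the laminin of epithelial basement membranes. *Lama3* (ENSMUSG00000024421) had 7, 17 and 36 normalised counts in CtrlCre and 40, 46 and 41 in Cpt1bcKO, so the Cpt1bcKO samples were close together and the controls were spread from 7 to 36. Its log2 fold change was 1.31 (SE 0.481, adjusted P = 0.250 by limma) and 0.75 without CtrlCre 1 (adjusted P = 0.498), or 0.78 without replicate 1 of both groups (adjusted P = 0.342). *Lamb3* (ENSMUSG00000026639, chromosome 1, 193207725 to 193343878, plus strand) had 124, 68 and 73 normalised counts in CtrlCre and 48, 38 and 54 in Cpt1bcKO. The Cpt1bcKO samples were all below the controls, of which CtrlCre 1 was the highest. The log2 fold change was −0.87 (SE 0.274, adjusted P = 0.182 by limma) and −0.60 without CtrlCre 1 (adjusted P = 0.445). The fold changes of *Lama3* and *Lamb3* thus differed in sign.

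The chains shared by most laminin trimers overlapped between the groups. *Lamc1*, the common gamma chain, had 333, 471 and 490 normalised counts in CtrlCre and 444, 497 and 476 in Cpt1bcKO (log2 fold change 0.15). *Lamb1* had 211, 149 and 219 in CtrlCre and 201, 196 and 197 in Cpt1bcKO (log2 fold change 0.06). *Lamb2* had 1351, 1093 and 1067 in CtrlCre and 924, 1153 and 1009 in Cpt1bcKO (log2 fold change −0.18, 95% confidence interval −0.52 to 0.15, and −0.076 without CtrlCre 1). *Lamb2* made up 91.3%, 92.3% and 88.8% of both beta chains in CtrlCre and 88.2%, 90.6% and 89.3% in Cpt1bcKO, which overlapped (difference of the means −1.42 points, exact two-sided permutation P = 0.3). Leaving out 1 sample at a time gave differences of −2.41 to −0.67 points.

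Of the nidogens, perlecan and agrin, only *Agrn*, a proteoglycan that binds dystroglycan and organises the neuromuscular junction, passed the unadjusted threshold with all samples. *Agrn* (ENSMUSG00000041936, chromosome 4, 156165290 to 156197488, minus strand) had 54, 122 and 87 normalised counts in CtrlCre and 130, 211 and 226 in Cpt1bcKO. The groups did not overlap, although Cpt1bcKO 1 was within 8 of CtrlCre 2. The log2 fold change was 1.13 (SE 0.308, 95% confidence interval 0.45 to 1.82, adjusted P = 0.120 by limma). It was 0.83 without CtrlCre 1 (adjusted P = 0.291) and 1.08 without replicate 1 of both groups (adjusted P = 0.0377).

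*Hspg2* had 740, 1271 and 1149 normalised counts in CtrlCre and 1065, 1557 and 1513 in Cpt1bcKO (log2 fold change 0.40, 95% confidence interval −0.09 to 0.90, adjusted P = 0.448 by limma). Cpt1bcKO 1 lay below CtrlCre 2 and 3, and the other two Cpt1bcKO samples were the highest. The fold change of *Hspg2* was 0.17 without CtrlCre 1 (adjusted P = 0.818) and 0.34 without replicate 1 of both groups, where it passed the unadjusted threshold (adjusted P = 0.199). *Nid1* had 186, 248 and 315 normalised counts in CtrlCre and 298, 397 and 228 in Cpt1bcKO, and *Nid2* had 15, 49 and 51 and 36, 47 and 58. Both nidogens overlapped, with log2 fold changes of 0.30 and 0.44, and these were 0.10 and −0.11 without CtrlCre 1.

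Several members are also made by other cells of the heart, and the summed CM and fibroblast markers separated the groups, while the sums of the other marker lists overlapped. In bulk RNA, fewer cells of a type and less RNA per cell cannot be told apart. Endothelial markers summed to 1517, 2932 and 3195 normalised counts in CtrlCre and 3358, 3510 and 2978 in Cpt1bcKO. All 10 were listed, and all had a log2 fold change above 0 (median 0.38). At the unadjusted threshold 2 were higher, *Flt1* and *Tie1* (20%, beside 6.66% of all genes). Without CtrlCre 1 the median was 0.04 and only *Flt1* passed, beside 631 genes higher in all. Of the 26 members tested, 11 had their lowest value in CtrlCre 1, as the endothelial, fibroblast and mural cell sums did. Among the 11 were *Itga1*, *Itga6*, *Itga9*, *Lama3*, *Agrn* and both nidogens, and 8 other members were lowest in Cpt1bcKO 1. The part of RNA from these cell types in the members' values was not tested. Fibroblast markers summed to 498, 785 and 772 in CtrlCre and 1338, 1289 and 1108 in Cpt1bcKO. All 7 tested of 8 were higher at the unadjusted threshold (100%, beside 6.66% of all genes), with a median log2 fold change of 1.12. Without CtrlCre 1, 5 of them were higher and the median was 0.82. Mural cell markers summed to 619, 1628 and 2030 in CtrlCre and 1614, 1519 and 1105 in Cpt1bcKO, with 4 of 7 tested above 0 (median log2 fold change 0.005), or 1 of 7 without CtrlCre 1 (median −0.48), and *Higd1b* was at 0 in CtrlCre 1.

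All 8 CM markers had a log2 fold change below 0, with a median of −0.44. At the unadjusted threshold 2 were lower, *Pln* and *Tnni3* (25%, beside 7.22% of all genes). The study itself reported lower levels of genes for maturation and contraction in CMs of this mutant. The CM sums were lower in every Cpt1bcKO sample, as *Lama2* was, and how far the CM share of the RNA bears on *Lama2* and its share was not tested. Leukocyte markers were low, at sums of 92 to 138 in CtrlCre and 125 to 142 in Cpt1bcKO over 8 genes listed, of which *Coro1a* was at 0 in a control. Schwann cell markers summed to 22 to 37 and 25 to 44, and epicardial markers to 22 to 57 and 14 to 24.

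**Figure D5:**
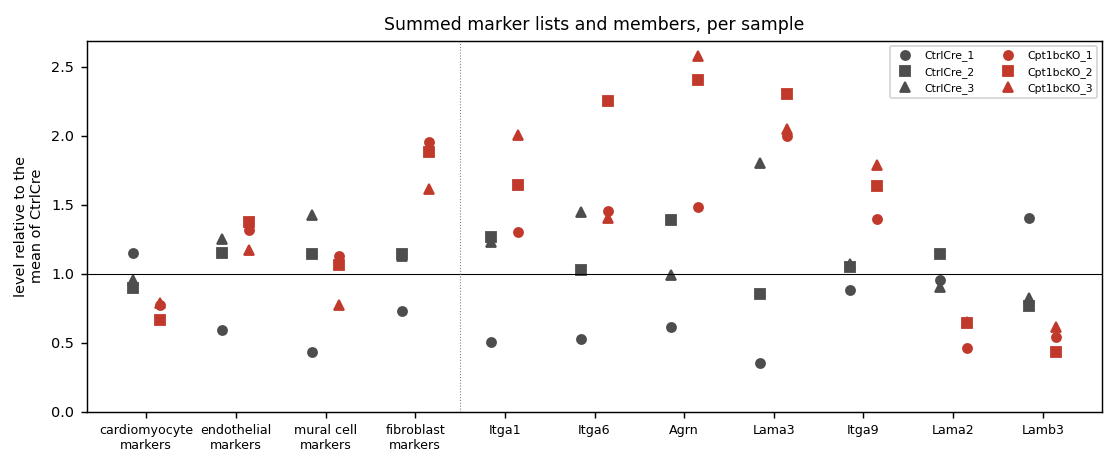
Summed normalised counts of 4 marker lists, left of the dotted line, and normalised counts of the 7 members with an unadjusted P below 0.05, each divided by its mean over the 3 CtrlCre samples, 1 point per sample. CtrlCre 1 stands at 0.60 for endothelial and 0.43 for mural cell markers and at 0.50 for *Itga1* and 0.52 for *Itga6*, while for *Lama2* it stands at 0.95.

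Beyond these genes, 4 lists of the same pathways were read from the same test. They were written with earlier results of these data known, so their call rates are descriptive. Of 8 integrin ligands of the interstitial matrix tested, 7 were above 0, 5 of them past the unadjusted threshold (62.5%, beside 6.66% of all genes), and the median log2 fold change was 1.02, or 0.68 without CtrlCre 1. Collagen genes *Col1a1*, *Col1a2* and *Col3a1* of this list are fibroblast markers too. Fibroblast sums were higher in every Cpt1bcKO sample than in every control, and how far fibroblast RNA bears on this list was not tested. *Thbs1*, a matricellular protein that binds integrins and CD47, had 28, 61 and 78 normalised counts in CtrlCre and 162, 146 and 211 in Cpt1bcKO (log2 fold change 1.72, SE 0.337, adjusted P = 0.0337 by limma). *Col1a1*, a chain of collagen I, had 45, 69 and 64 in CtrlCre and 162, 141 and 141 in Cpt1bcKO (log2 fold change 1.32, SE 0.214, adjusted P = 0.0143 by limma). Both rose, with every Cpt1bcKO sample above every control, and both kept their adjusted calls without CtrlCre 1 (0.0402 and 0.0382). Leaving out Cpt1bcKO 2, Cpt1bcKO 3 or CtrlCre 2 gave *Thbs1* adjusted P values of 0.123, 0.107 and 0.0858, and leaving out Cpt1bcKO 2 or CtrlCre 3 gave *Col1a1* 0.0813 and 0.0519. *Col3a1* followed with 1.11 (adjusted P = 0.0511 by limma). *Fn1*, the ligand of *Itga5*, had 65, 136 and 185 normalised counts in CtrlCre and 154, 163 and 136 in Cpt1bcKO, which overlapped.

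Of the other basement membrane components, 16 of 18 tested had a log2 fold change above 0 (median 0.52), 7 were higher and 1 lower at the unadjusted threshold (38.9% and 5.56%, beside 6.66% and 7.22% of all genes), and none passed at the adjusted one. *Ntn4*, a netrin that binds laminin and loosens its network, was the one on the lower side, with 94, 83 and 131 normalised counts in CtrlCre and 32, 39 and 60 in Cpt1bcKO (log2 fold change −1.24, SE 0.281, adjusted P = 0.0624 by limma). *Col15a1*, a basement membrane collagen of muscle and vessels, had 64, 81 and 124 in CtrlCre and 218, 180 and 159 in Cpt1bcKO (log2 fold change 1.08, adjusted P = 0.0665). *Col4a4* had 8, 21 and 16 in CtrlCre and 36, 47 and 45 in Cpt1bcKO (log2 fold change 1.53, adjusted P = 0.0808). None of these 3 overlapped between the groups. Without CtrlCre 1 the median of this list was 0.34, with 4 higher and 1 lower at the unadjusted threshold. Scaled to equal totals, 10 were higher and 1 lower, beside 1221 genes higher and 505 lower in all. Fibroblast sums also separated the groups, and how far fibroblast and endothelial RNA bears on this list was not tested.

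Of the 9 dystroglycan-complex proteins and other non-integrin laminin receptors, 8 had a log2 fold change below 0 (median −0.32), and 4 were lower and 1 higher at the unadjusted threshold (44.4% and 11.1%, beside 7.22% and 6.66% of all genes). When samples were scaled to equal totals 5 of 9 were below 0, with 2 lower and 1 higher at that threshold, beside 505 genes lower and 1221 higher in all, and without replicate 1 of both groups the median was −0.14. All 8 CM markers were also below 0 (median −0.44), and how far the CM share of the RNA bears on this list was not tested. *Sntb1*, a syntrophin that binds dystrophin, had 36, 38 and 34 normalised counts in CtrlCre and 138, 94 and 71 in Cpt1bcKO. It rose, with a log2 fold change of 1.41 (SE 0.264, adjusted P = 0.0269 by limma), while leaving out CtrlCre 1, 2 or 3 or Cpt1bcKO 2 gave adjusted P values of 0.0732, 0.0885, 0.105 and 0.135. *Dtna*, a dystrobrevin, had 508, 477 and 408 in CtrlCre and 347, 305 and 327 in Cpt1bcKO (log2 fold change −0.50, adjusted P = 0.159). The receptor itself, *Dag1*, was also separate between the groups, with 1340, 1138 and 1142 in CtrlCre and 1091, 939 and 822 in Cpt1bcKO (log2 fold change −0.35, below the unadjusted threshold, adjusted P = 0.340 by limma). Without CtrlCre 1 it was −0.27, which missed that threshold, and with scaling to equal totals −0.24 (adjusted P = 0.525).

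Of the integrin-linked adhesion proteins, 15 of 23 tested were above 0, with a median log2 fold change of 0.10. Without CtrlCre 1 the median was 0.05, with 12 above 0 and 11 below. At the unadjusted threshold 2 were higher and 4 lower (8.7% and 17.4%, beside 6.66% and 7.22% of all genes), and none passed the adjusted one. This split became 5 higher and 0 lower when samples were scaled to equal totals, where all genes split into 1221 higher and 505 lower, and 0 higher and 1 lower (*Lims1*) without CtrlCre 1, beside 631 higher and 588 lower. The lowest P values were those of *Lims2* (0.61), *Actn1* (0.63) and *Csrp3* (−0.43), given with their log2 fold changes, at adjusted P values of 0.277, 0.286 and 0.299 by limma. *Lims2* had 36, 48 and 42 normalised counts in CtrlCre and 61, 56 and 78 in Cpt1bcKO and did not overlap. Its paralogue *Lims1* had 687, 828 and 766 in CtrlCre and 479, 588 and 685 in Cpt1bcKO (log2 fold change −0.39, below the unadjusted threshold, adjusted P = 0.322), so the pair differed in sign. *Tln2*, the talin of striated muscle, had 925, 832 and 894 in CtrlCre and 569, 649 and 832 in Cpt1bcKO, whereas *Tln1* had 585, 678 and 810 and 690, 848 and 766.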

How the data were processed

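RNA-seq of CMs was examined in 3 CtrlCre and 3 Cpt1bcKO samples, grouped by their titles. RNA libraries were made with a stranded total RNA kit. Per the labels and the submitters' processing notes, reads were checked with FastQC 0.11.8, trimmed with Trimmomatic 0.36, aligned with STAR 2.5.4b, counted with featureCounts 1.6.0 and normalised with DESeq2 1.14.1 (mm10, GRCm38.p5). The annotation release and the strand setting used in counting are not given in the sources used here. The deposited values, treated as a score, are counts that the authors divided by size factors and rounded to whole numbers. The raw counts could not be recovered in all samples, so the read depth behind low values is not known exactly. The table also holds fold changes, P values and group means of the authors, which were not used. No column belonged to a sample outside the labels.

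Values were transformed to log2(value + 1), so fold changes of low genes are understated. Genes that reached 10 in 3 or more samples were tested with limma 3.58.1 in R 4.3.3 (lmFit, eBayes with trend), with all 6 samples and no covariate, and P values were adjusted by the Benjamini–Hochberg method over 11364 genes. The script was tested on simulated data. Shares used exact permutation tests over samples. Exonic lengths are unions of exons in GENCODE vM21, to which all 36 members matched by identifier, 28 with the same start and end, so coordinates are those deposited. Of the members, 23 were found in the RefSeq promoter table. Tables and figures used Python 3.11.15, numpy 2.4.6, pandas 2.3.3 and matplotlib 3.10.9.

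The members and gene lists were chosen with earlier results of these data known. Every member is counted, those called by either rule are given in full, and a few genes counted in the lists are not reported here by name. From each pathway list the text names genes with an adjusted P below 0.05 and, where fewer than 3 passed, those with the lowest P up to 3, leaving out any not reported here. *Fn1*, *Dag1*, *Lims1*, *Tln1*, *Tln2*, *Flt1*, *Tie1*, *Pln*, *Tnni3*, *Coro1a*, *Higd1b*, *Cox6a2*, *Xist*, *Ddx3y* and *mt-Rnr2* were named after their values were seen. Genes of the lists that were not analysed here include *Ilk*, *Fermt1*, *Spp1*, *Cd3e* and *S100b*. Alternatives covered the call threshold, scaling, filters, pseudocounts of 0.5 and 5, 1 prior variance, a replicate block and leaving out samples.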

Additional observations from a re-analysis of the deposited data

How the results depend on the processing

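Of 387 recomputed values for the members' own fold changes, 362 kept direction and side of the threshold, 11 passed it in addition and 14 turned sign. The differences of the 3 shares kept their sign throughout. The genes called at adjusted P numbered 178, against 1578 at unadjusted P, 41 with 1 prior variance and 42 to 329 when leaving out 1 sample. The members called were 0, against 7 at unadjusted P, 1 with totals scaling (*Itga9*, beside 177 genes in all), 1 with no filter (*Lama2*, beside 212), 3 without replicate 1 of both groups (*Agrn*, *Itga9* and *Itgad*, beside 239) and 0 to 2 when leaving out 1 sample (*Agrn* and *Itga9* without Cpt1bcKO 1, beside 329). The integrin alpha median ranged from 0.34 to 0.68 when leaving out 1 sample, and the integrin beta median from −0.23 to 0.091, with 0.16 under totals scaling and −0.052 without replicate 1 of both groups. Leaving out 1 sample gave log2 fold changes of −0.86 to 0.78 for *Itga8*, −0.12 to 0.20 for *Itgav*, −0.051 to 0.11 for *Itgb5*, −0.23 to 0.22 for *Itgb6*, −0.30 to 0.28 for *Lama5*, −0.12 to 0.16 for *Lamb1*, −0.026 to 0.25 for *Lamc1* and −0.11 to 0.74 for *Nid2*. Without replicate 1 of both groups *Itgb5* stood at −0.052 and *Lama5* at 0.19, and with totals scaling *Lama5* at 0.052. The cause of these changes was not tested. With the replicate number as a block, 603 genes and 4 members were called, which were *Agrn* (adjusted P = 0.00545 by limma), *Itga9* (0.00785), *Lama2* (0.00826) and *Itga1* (0.0252). The block also called 5 other basement membrane components (0 without it) and 5 integrin ligands of the interstitial matrix (2 without it). It called 3 non-integrin laminin receptors (1 without it) and 1 integrin-linked adhesion protein (0 without it). Deviations from the group means correlated at 0.376, 0.255 and 0.0684 across genes in same-numbered samples, and the last did not reach 0.1, so the numbers were not taken to pair the samples, although same-numbered samples also share sex by *Xist* and *Ddx3y*. Replicates 1 and 2 of both groups correlated best with their own number, and replicate 3 of both did not. Low values limit the comparison of *Itga4*, *Itga8* and *Lama3*.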
